A study of Mus musculus with 123 samples.

Results

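The enzymes described here are 34 Cyp2 and Cyp3a genes of a mouse liver RNA-seq table of 15398 genes. They do not include Cyp2b9, Cyp2b10, Cyp2b13, Cyp2a5 and Cyp2f2, nor Cyp2e1, whose letter is not among those listed next. They were chosen by symbol alone: every row named Cyp2 with a, b, c, d, f, g, j, r, s or u, or Cyp3a, was taken, and symbols ending in -ps (pseudogenes) were left out. The rule itself uses no measured value, though the members were chosen with earlier results of these data known. The rule gave 13 Cyp2c, 8 Cyp2d, 4 Cyp3a, 3 Cyp2j and 2 Cyp2a genes, and 1 gene each of Cyp2g, Cyp2r, Cyp2s and Cyp2u. It left out 7 further rows of these subfamilies. All 34 were among the 14397 genes with at least 1 CPM (the read count scaled to the size of the library) in at least 3 libraries, the filter for every test. In 25 of them that level was reached in every library, while 9 were under 1 CPM in at least 1.

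The study measured liver RNA of mice on 2 diets, High Fat Diet (HFD below) and Low Fat Diet (LFD), kept in a photoperiod labelled Equal light, Long light or Short light. Livers were taken at zeitgeber times (ZT) 0, 4, 8, 12, 16 and 20. The libraries form 36 groups of diet, photoperiod and time, 21 of them with 3 libraries and 15 with 4, and 61 libraries are HFD and 62 LFD. An arm is 1 diet in 1 photoperiod, with 20 or 21 libraries. The labels give no strain, sex, age, hours of light or composition of the diets, do not say from what event ZT 0 is counted, and do not say that each library is a separate animal. If some libraries share an animal, the p-values measure a spread that is in part technical.

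Cytochrome P450 enzymes of the Cyp2 and Cyp3 families are heme proteins of the endoplasmic reticulum. They take electrons from the reductase Por, and with some substrates from cytochrome b5, and insert 1 oxygen atom into drugs, steroids, bile acids and fatty acids. The liver is their main site, and hepatocytes around the central vein carry many of them. The receptors CAR (Nr1i3) and PXR (Nr1i2) switch on several Cyp2b, Cyp2c and Cyp3a genes, and in mice the pattern of growth hormone release sets the sex bias of many Cyp2 genes. Many of the genes are recent copies that lie side by side, so their transcripts share long stretches of sequence.

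The libraries held 13.97 M to 39.09 M (mega) reads, with a median of 24.06 M. Of 8 hepatocyte markers 7 were in the table, and their mean level lay between 11.90 and 12.48 log2 CPM in every library. Markers of pancreas acinar cells or skeletal muscle averaged above 4 log2 CPM in 19 libraries, 5 HFD and 14 LFD, of which 4 were in Equal, 9 in Long and 6 in Short light. Of the 11 pancreas markers tested, 10 were lower in HFD (12.6% of all genes were). One library, replicate 3 of LFD Equal light at ZT 0, stood apart from the rest of its group, with a correlation of 0.93 to it against a median of 0.976 over all libraries. It held the lowest or highest value of all libraries for 12 of the 34 enzymes. Replicate 1 of HFD Equal light at ZT 20 was next, with a correlation of 0.946 and 4 enzymes at an extreme. Values without these libraries are given beside several results below. In whole liver, fewer cells of a type and less RNA per cell cannot be told apart.

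Compared per length of transcript, the levels of the enzymes had medians from 0.197 to 751 CPM per kilobase over the libraries. Cyp2d9, a steroid hydroxylase typical of male liver, had the highest median, 751 CPM per kilobase. Cyp2d26 followed with 502, Cyp2c29 with 403, and Cyp2a12, which hydroxylates bile acids, with 348. Cyp2c70, the enzyme behind the muricholic acids of rodents, stood at 331, Cyp2d10 at 323 and Cyp2j5, an epoxygenase of arachidonic acid, at 272 CPM per kilobase. The ranges over libraries of neighbours in this order overlapped, for example 197 to 514 for Cyp2a12 and 125 to 1115 for Cyp2c70. At the other end, Cyp2c69 (0.197), Cyp2s1 (0.233), Cyp2d12 (0.343) and Cyp2d11 (0.44) were nearly silent. The low group also held Cyp2c40, Cyp2a4, Cyp2c39 and Cyp2g1, with medians of 0.522 to 0.577. Cyp2d13 had no length in the annotation used (GENCODE mouse M21) and has no place in this order, though at 8.40 log2 CPM (median) it was well expressed. RefSeq on GRCm38.p6 lists it as a transcribed pseudogene on chromosome 15, 82636750 to 82642045.

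**Figure D1:**
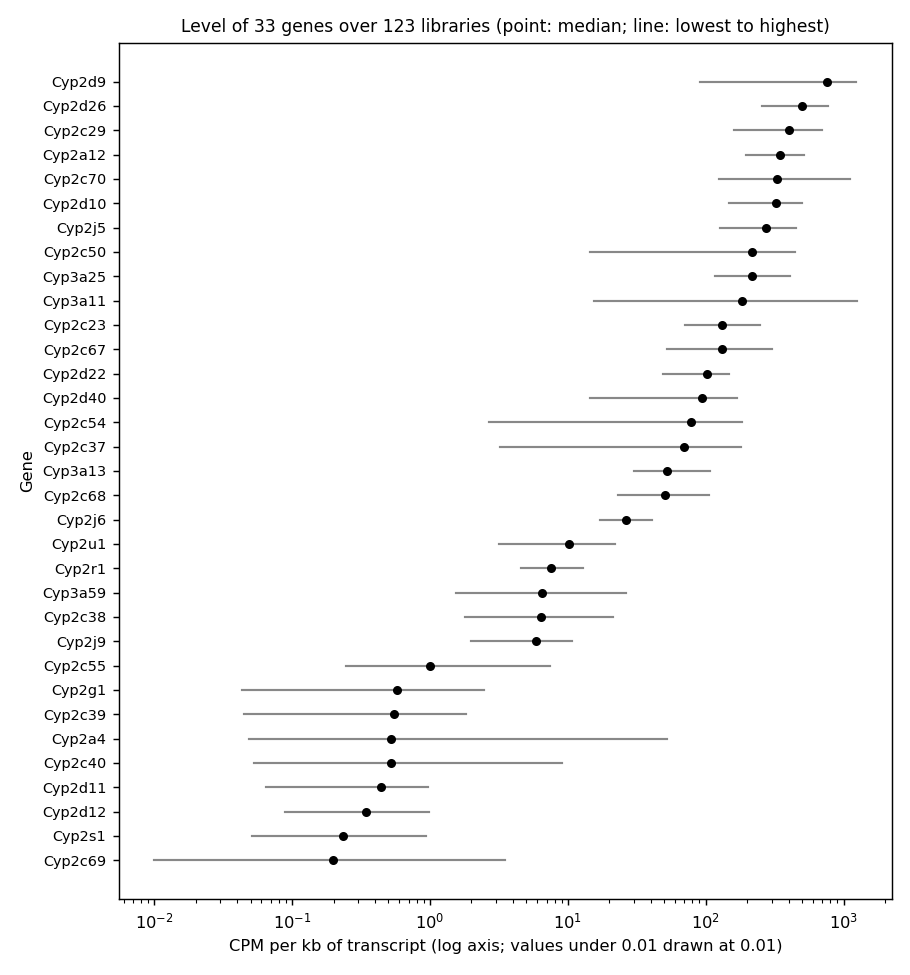
Level of 33 enzymes in CPM per kilobase of transcript on a log axis, where points are medians over all libraries and lines run from the lowest to the highest library. The Cyp2d, Cyp2c and Cyp3a genes at the top lie above 100, while the 9 lowest genes have medians of 1.0 or less.

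The diet comparison asked which enzymes differ between HFD and LFD livers over all photoperiods and times. Of the 34 enzymes, 18 (52.9%) passed the test, against 25.5% of all genes tested (limma on log2 CPM, Benjamini-Hochberg over 14397 genes, threshold 0.05). Higher in HFD were 10 (29.4%, against 12.9% of all genes), and lower were 8 (23.5%, against 12.6%). The median difference over the 34 was 0.08 on the log2 scale and that of all genes was -0.004. Cyp2c40 and Cyp2c69 differed by more than 2-fold, and 4 of the 34 by more than 1.5-fold.

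**Figure D2:**
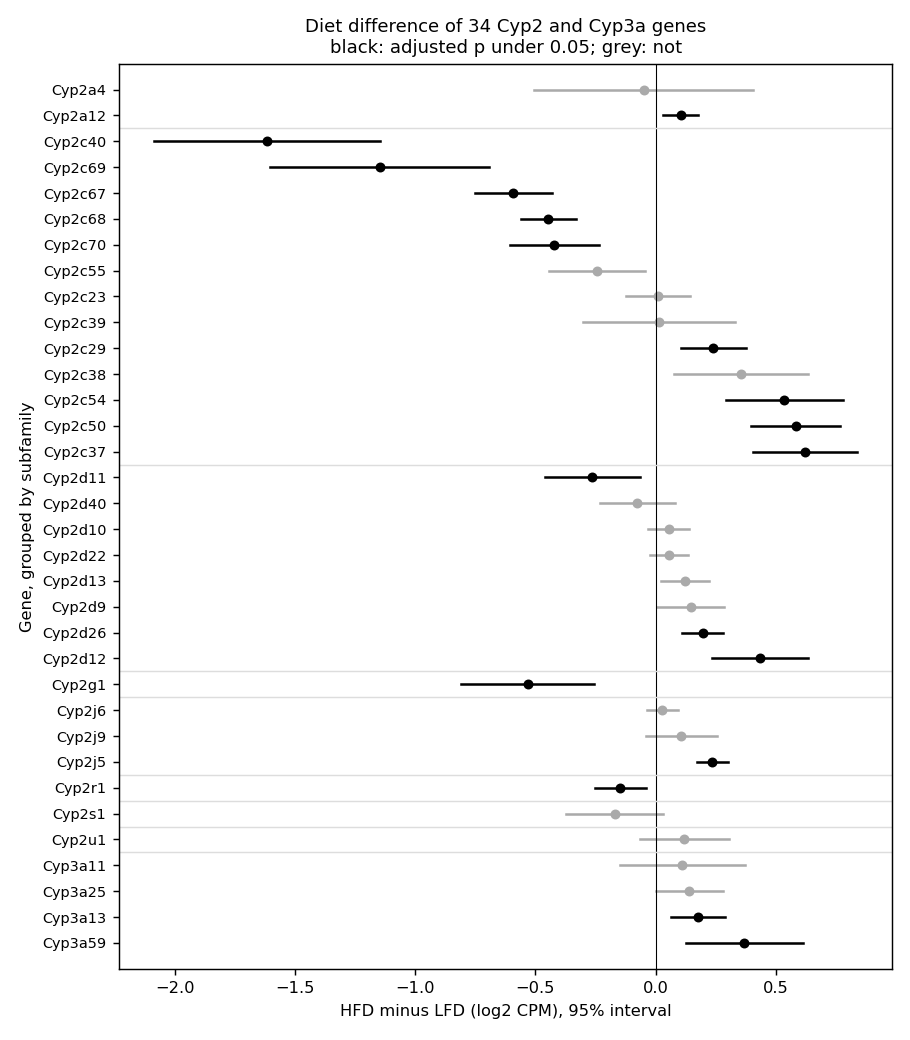
HFD minus LFD difference in log2 CPM with its 95% interval for the 34 enzymes, grouped by subfamily, black where the adjusted p was under 0.05 and grey where it was not. Both the largest falls (Cyp2c40, Cyp2c69) and the largest rises (Cyp2c37, Cyp2c50, Cyp2c54) are Cyp2c genes.

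The Cyp2c genes, known mainly as drug hydroxylases and as epoxygenases and hydroxylases of fatty acids, moved in both directions. Of 13, 4 were higher in HFD, 5 were lower and 4 did not pass. The calls followed the order of the genes along the cluster on chromosome 19 (build GRCm38, GENCODE M21). From Cyp2c55 at 39007019 the genes run Cyp2c29, Cyp2c38, Cyp2c39, then Cyp2c67, Cyp2c68, Cyp2c40 and Cyp2c69, then Cyp2c37, Cyp2c54 and Cyp2c50, and last Cyp2c70, which ends at 40187333. The block Cyp2c67, Cyp2c68, Cyp2c40 and Cyp2c69, 39608842 to 39886799 and all on the minus strand, fell in HFD. The next block, Cyp2c37, Cyp2c54 and Cyp2c50, 39992424 to 40113950, rose. Cyp2c70 beyond it fell again, and Cyp2c23, far away on the same chromosome, had a difference of 0.01 (interval -0.12 to 0.14).

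**Figure D3:**
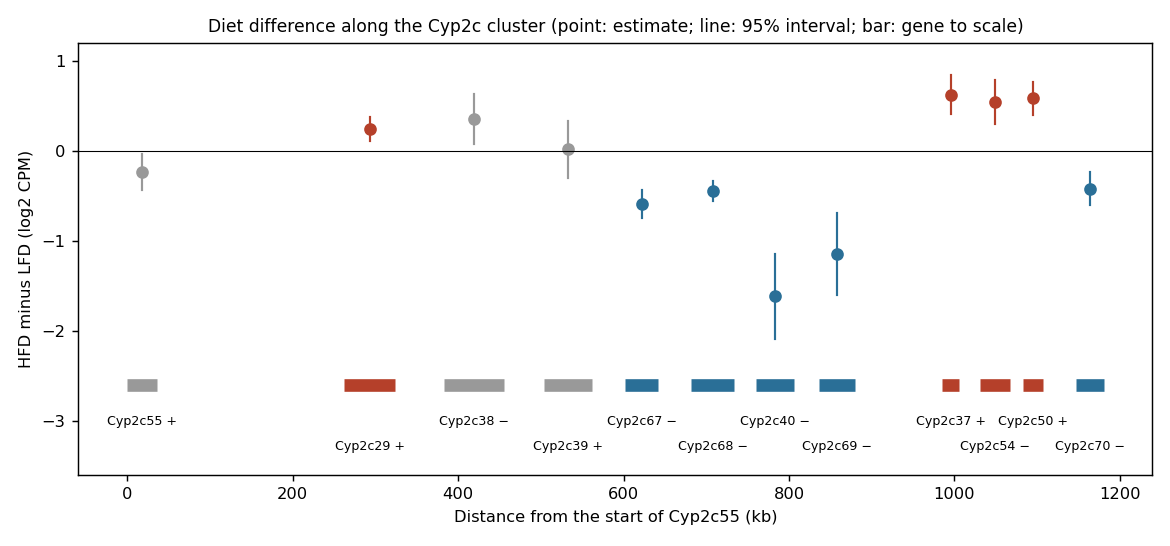
HFD minus LFD difference (log2 CPM, with 95% interval) of the 12 clustered Cyp2c genes against distance in kilobases from the start of Cyp2c55, with bars for the genes to scale and their strand beside the name (red: higher in HFD, blue: lower, grey: not past the threshold). The 4 neighbours that fell (Cyp2c67, Cyp2c68, Cyp2c40, Cyp2c69) are followed by 3 that rose (Cyp2c37, Cyp2c54, Cyp2c50) and by Cyp2c70, which fell.

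The start regions of the 2 blocks differ, and a stretch of each is printed because the direction of the diet difference followed the blocks. RefSeq windows of 250 bases before to 50 after the start (GRCm38.p6) were given for 27 of the 34 enzymes. Cyp2c54 is named only. The 60 bases shown run 5′ to 3′ on the gene's strand, and the capitals mark CAAAGTCCA, letters of the kind bound by HNF4, a hepatocyte receptor. Cyp2c37 and Cyp2c50 lack these exact letters, so their stretch is aligned at the shorter CAAAGT and has no capitals. Both read caaagtgca there, with g in place of the first C of the CCA. Whether HNF4 binds either form was not tested.
Cyp2c67 (chr19:39649128-39649187, minus): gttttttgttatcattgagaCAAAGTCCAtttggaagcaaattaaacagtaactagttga
Cyp2c68 (chr19:39741139-39741198, minus): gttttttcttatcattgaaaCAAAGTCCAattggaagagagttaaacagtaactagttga
Cyp2c40 (chr19:39812820-39812879, minus): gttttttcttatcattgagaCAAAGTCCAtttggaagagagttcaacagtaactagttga
Cyp2c69 (chr19:39886805-39886864, minus): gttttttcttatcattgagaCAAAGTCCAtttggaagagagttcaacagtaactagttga
Cyp2c70 (chr19:40187311-40187370, minus): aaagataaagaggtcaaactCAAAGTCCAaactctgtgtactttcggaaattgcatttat
Cyp2c37 (chr19:39992341-39992400, plus): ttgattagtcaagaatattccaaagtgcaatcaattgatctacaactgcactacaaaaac
Cyp2c50 (chr19:40089598-40089657, plus): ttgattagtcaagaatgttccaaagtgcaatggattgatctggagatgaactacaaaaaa

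The stretches of Cyp2c40 and Cyp2c69 are identical, and within the block that fell identity was at least 90%. Cyp2c37 and Cyp2c50 of the block that rose share 85% of bases, while between the 2 blocks identity was 33.3% to 41.7%, counted position by position without gaps. The Cyp2c70 stretch shares 31.7% to 33.3% of bases with those of the block that fell, the capitals included. CAAAGTCCA, searched on both strands, occurred in 6 of 29 windows of the enzymes (Cyp2c40, Cyp2c67, Cyp2c68, Cyp2c69, Cyp2c70 and Cyp3a11) and in 0.47% of 32851 RefSeq windows of the same length. These letters were picked after the windows were seen, 4 of the 6 windows are near copies of each other, and a match is not a measured binding site. Cyp3a11, which has the letters too, was not called between the diets, as given below. A link of the letters or of the start sequences to the diet differences was not tested. Transcripts of Hnf4a itself differed by 0.001 between the diets (SE 0.036, adjusted p 0.992 by limma).

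The transcripts share sequence too, which limits how well reads can be assigned. Of the stretches of 52 bases (the read length) in Cyp2c40, 70.9% also occur in another gene, and 41.2% in Cyp2c69. The share was 53.7% in Cyp2c69, 51.5% in Cyp2c67 and 41.8% in Cyp2c68, 24.5% to 29.5% in Cyp2c37, Cyp2c50 and Cyp2c54, and 0% in Cyp2c70. How reads that fit several genes were counted is not given in the sources, so the values of the 2 blocks are uncertain for single genes. For each of these 7 genes the closest other gene was one of its own block, whose members moved in the same direction.

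In the block that fell, Cyp2c68 had the smallest adjusted p. Its lowest, median and highest log2 CPM were 5.97, 6.60 and 7.10 among the LFD libraries of Equal light, 6.25, 6.71 and 7.5 of Long light, and 5.78, 6.64 and 7.31 of Short light. The HFD arms stood at 5.70, 6.27 and 7.19 (Equal), 5.81, 6.28 and 6.77 (Long), and 5.31, 6.12 and 6.63 (Short). The ranges overlapped in every photoperiod, and in Equal light the LFD range lay inside the HFD range. In Short light 0 of 21 HFD libraries lay above the LFD median, and in Long light 2 of 20. HFD was lower by a log2 difference of -0.45 (SE 0.058, limma adjusted p 2.20e-09), or 1.36-fold, and in 18 of 18 pairs of groups matched for photoperiod and time.

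Cyp2c67 had medians of 8.07, 8.34 and 8.11 log2 CPM in LFD under Equal, Long and Short light, and of 7.67, 7.63 and 7.40 in the HFD arms. Its LFD libraries ran from 6.69 to 9.04 and its HFD libraries from 6.51 to 8.28. No HFD library in Long or Short light exceeded the LFD median of its photoperiod, while in Equal light some did, up to 8.23. The difference was -0.59 (SE 0.081, limma adjusted p 1.13e-08), and HFD was lower in 18 of 18 pairs.

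Cyp2c40 showed the largest fold of the 34 at a low level. The LFD libraries ran from -2.10 to 4.04 log2 CPM with a median of 1.22, and the HFD libraries from -2.49 to 2.96 with a median of -0.54. In reads, the medians were 56 per LFD library and 15 per HFD library. By photoperiod, the LFD medians were 0.78 (Equal), 1.43 (Long) and 0.98 (Short) and the HFD medians -0.36, -0.40 and -0.91. All 21 LFD Long light libraries lay above the HFD median, and 1 of 20 HFD libraries above the LFD median. The lowest LFD library, at -2.10 in Equal light, lay below the HFD median there. HFD was lower by -1.62 (SE 0.237, limma adjusted p 7.21e-08), or 3.07-fold, in 18 of 18 pairs. With a larger pseudocount, log2(CPM + 1), the difference was -0.94 (adjusted p 4.71e-07).

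Cyp2c69 was close to the floor of the table, with medians of 15 reads per LFD library and 5 per HFD library. Its LFD range was -2.99 to 2.55 log2 CPM with a median of -0.49. The HFD libraries ran from the floor, which is 0 reads, to 1.76 with a median of -1.76. The groups overlapped widely in Equal light, where 7 of 20 HFD libraries exceeded the LFD median, and hardly in Long light, where 1 of 20 did. The difference was -1.15 (SE 0.229, limma adjusted p 5.54e-05), with HFD higher in 1 of 18 pairs, and -0.46 on log2(CPM + 1) (adjusted p 1.98e-04).

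In the block that rose, Cyp2c50 was the most abundant. Its lowest, median and highest log2 CPM were 4.72, 8.37 and 9.19 in LFD Equal, 7.08, 8.38 and 8.87 in LFD Long and 7.28, 8.44 and 8.83 in LFD Short light. The HFD arms stood at 7.69, 8.94 and 9.29, at 7.72, 8.96 and 9.65, and at 8.26, 8.85 and 9.29. In Long and Short light no LFD library reached the HFD median, while in Equal light the highest LFD library, at 9.19, lay above it. The difference was 0.58 (SE 0.092, limma adjusted p 5.24e-07), or 1.5-fold, with HFD higher in 18 of 18 pairs.

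Cyp2c37 followed the same pattern at a lower level. Its medians were 6.78, 6.69 and 6.91 log2 CPM in LFD under Equal, Long and Short light, and 7.33, 7.40 and 7.22 in HFD, with ranges of 2.58 to 7.59 over LFD and 5.84 to 8.37 over HFD. The difference was 0.62 (SE 0.109, limma adjusted p 5.08e-06), or 1.54-fold, again with HFD higher in 18 of 18 pairs. Cyp2c54 differed by 0.54 (SE 0.123, adjusted p 4.47e-04) and was higher in 17 of 18 pairs. The LFD library that stood apart held the lowest value of all 3 genes, at 2.58 for Cyp2c37 against 6.40 in the rest of its group, 4.72 against 8.21 for Cyp2c50 and 2.29 against 6.67 for Cyp2c54. Without it the differences were 0.55, 0.52 and 0.46, with adjusted p-values of 2.00e-06, 6.43e-08 and 3.88e-04.

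**Figure D4:**
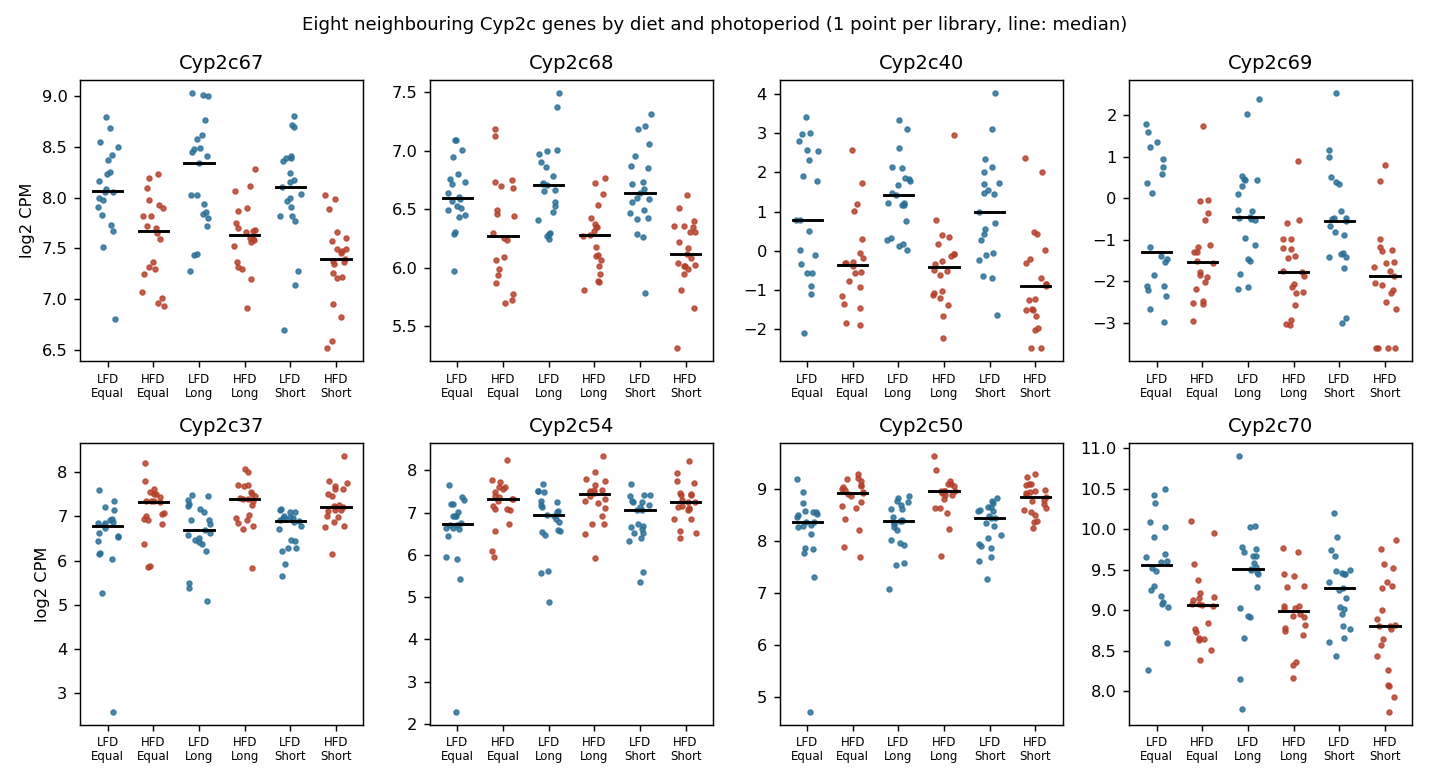
Level in log2 CPM of the 8 diet-called genes from Cyp2c67 to Cyp2c70 in each library, by arm (blue: LFD, red: HFD, line: median of the arm). The HFD medians are lower in every photoperiod for Cyp2c67, Cyp2c68, Cyp2c40, Cyp2c69 and Cyp2c70 and higher for Cyp2c37, Cyp2c54 and Cyp2c50; the single low point in LFD Equal light is replicate 3 at ZT 0.

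Cyp2c70, whose transcript shares no 52-base stretch with another gene, was lower in HFD by -0.42 (SE 0.093, limma adjusted p 2.63e-04), with HFD lower in 18 of 18 pairs. Its median fell from 9.47 log2 CPM over LFD libraries to 8.95 over HFD libraries. Cyp2c29, a gene that CAR activates, rose by 0.24 (adjusted p 0.00491), a call that was lost without the 19 libraries rich in pancreas or muscle markers (0.195, adjusted p 0.0555). Cyp2c38 stood at 0.355 (interval 0.08 to 0.63, adjusted p 0.0512), Cyp2c55 at -0.24 (-0.44 to -0.04, 0.0652) and Cyp2c39 at 0.015 (-0.30 to 0.33, 0.961), none of which passed.

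The clustered genes also varied together from library to library. Correlations were taken over all libraries after the mean of each library's group was subtracted, for 7 pairs of genes chosen after the diet results were seen, with p-values from 100000 permutations within groups and adjusted over the pairs. Cyp2c54 and Cyp2c50 had a Pearson r of 0.965 and a Spearman rho of 0.944, and Cyp2c37 and Cyp2c50 an r of 0.945 and a rho of 0.894. Cyp2c40 and Cyp2c69 had r 0.879 and rho 0.83, and Cyp2c67 and Cyp2c68 r 0.79 and rho 0.78. All 4 had an adjusted permutation p of 1e-05 for both measures, the smallest that 100000 permutations can give. Each r was also taken without the 2 libraries whose level of the first gene named lay farthest from the median of that gene. That gave r of 0.943, 0.913, 0.867 and 0.781. These pairs share sequence, as given above, and its part in the correlations was not tested.

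Cyp2c67 and Cyp2c40, which share much sequence, had r 0.252 (adjusted permutation p 0.0325) and rho 0.176 (0.111). Without the 2 libraries farthest from the median of Cyp2c67, r was 0.225. Cyp2c50 and Cyp2c67 differ between the diets in opposite directions, yet within groups their deviations were positively correlated. They had r 0.543 and rho 0.53 (adjusted permutation p 2e-05 for both), and r 0.49 without the 2 libraries farthest from the median of Cyp2c50. Cyp2c40 ran against Cyp2b9, a Cyp2b gene that was 3.49 log2 units higher in HFD, with r -0.565 and rho -0.52 (1e-05 for both). Without the 2 libraries farthest from the median of Cyp2c40, r was -0.591. Leaving out the rich libraries and the 2 farthest from their own groups gave r of -0.575 for that pair and 0.621 for Cyp2c50 and Cyp2c67.

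The Cyp2d genes, relatives of the human drug enzyme CYP2D6 on chromosome 15, changed little. Of 8, 2 were higher in HFD, 1 was lower and 5 did not pass. Cyp2d26 had medians of 9.48, 9.67 and 9.62 log2 CPM in LFD under Equal, Long and Short light, and of 9.79, 9.79 and 9.84 in HFD. Its ranges, 8.87 to 10.23 over LFD and 8.77 to 10.34 over HFD, overlapped almost fully. The difference was 0.20 (SE 0.043, limma adjusted p 2.50e-04), with HFD higher in 17 of 18 pairs.

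Cyp2d12 rose by 0.44 (adjusted p 4.70e-04) and Cyp2d11 fell by 0.26 (0.0397), both at medians under 20 reads per library. On log2(CPM + 1) the differences were 0.18 and -0.11, and the Cyp2d11 call was lost without the libraries rich in pancreas or muscle markers (-0.20, adjusted p 0.211). The abundant Cyp2d9 stood at 0.15 (interval 0.01 to 0.29, adjusted p 0.119), Cyp2d13 at 0.12 (0.02 to 0.22, 0.0602), Cyp2d22 at 0.06 (-0.02 to 0.14, 0.316) and Cyp2d10 at 0.055 (-0.03 to 0.14, 0.383). Cyp2d40 stood at -0.08 (interval -0.23 to 0.08, adjusted p 0.519). Of the 52-base stretches, 39.2% of Cyp2d10, 35.5% of Cyp2d11 and 27.6% of Cyp2d9 occur in another gene.

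The Cyp3a genes code for the broadest drug and steroid hydroxylases of the liver. Of 4, 2 were higher in HFD and 2 did not pass. Cyp3a59 rose by 0.37 (SE 0.123, limma adjusted p 0.0175), from a median of 3.38 log2 CPM in LFD to 3.92 in HFD. Cyp3a13 rose by 0.18 (SE 0.057, adjusted p 0.0132), from 7.21 to 7.36. Cyp3a11, a main target of PXR, was not called at 0.11 (interval -0.15 to 0.37, adjusted p 0.578). Its libraries ran from 5.18 to 10.87 in HFD and from 7.10 to 11.52 in LFD, a spread within groups (residual SD 0.733) larger than that of the 34 enzymes at the median (0.485). Cyp3a25 stood at 0.14 (0.00 to 0.28, 0.13).

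Among the smaller subfamilies, Cyp2j5 gave the third smallest adjusted p of the 34. Its medians were 9.19, 9.20 and 9.14 log2 CPM in LFD under Equal, Long and Short light, and 9.46, 9.43 and 9.39 in HFD. Its lowest and highest libraries were 8.22 and 9.65 in LFD and 8.99 and 10.04 in HFD. In each photoperiod at least 19 HFD libraries exceeded the LFD median. The difference was 0.24 (SE 0.033, limma adjusted p 1.67e-08), with HFD higher in 17 of 18 pairs. Its neighbours on chromosome 4, Cyp2j6 and Cyp2j9, stood at 0.03 (interval -0.03 to 0.09) and 0.11 (-0.04 to 0.25) and did not pass.

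Cyp2g1, best known from the olfactory lining, fell by 0.53 (SE 0.139, limma adjusted p 0.00217), from a median of 0.39 log2 CPM in LFD to 0.07 in HFD, with HFD higher in 2 of 18 pairs. On log2(CPM + 1) the fall was 0.27. Cyp2r1, which hydroxylates vitamin D, fell by 0.15 (adjusted p 0.0308), and Cyp2a12 rose by 0.11 (0.0241), a call that was lost without the libraries rich in pancreas or muscle markers (0.11, adjusted p 0.0577). Cyp2a4, a testosterone hydroxylase, stood at -0.05 (interval -0.51 to 0.41), Cyp2s1 at -0.17 (-0.37 to 0.03) and Cyp2u1, which hydroxylates long fatty acids, at 0.12 (-0.07 to 0.30). The Cyp2a4 libraries ran from -2.58 to 6.5 log2 CPM, the highest being the library that stood apart, where the others of its group averaged -1.76.

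Within single photoperiods fewer genes were called overall. In Equal light 10 enzymes passed (6.85% of all genes did), 6 higher (3.5%) and 4 lower (3.35%). In Long light 8 passed (4.86%), 4 higher (3.22%) and 4 lower (1.64%), and in Short light 8 (6.88%), 3 higher (3.74%) and 5 lower (3.14%). In all, 6 enzymes passed in each of the 3 (1.74% of all genes did), 13 in at least 1 (12.4%), and 23 of 34 had the same sign in all 3 (53.4%). Without the libraries rich in pancreas or muscle markers, 2 passed in each of the 3, Cyp2c40 and Cyp2c68 (0.702% of all genes). The Cyp2c40 difference was -1.28 in Equal, -1.86 in Long and -1.71 in Short light, Cyp2c67 stood at -0.49, -0.60 and -0.69, and Cyp2c50 at 0.65, 0.58 and 0.53. Without the LFD library that stood apart, Cyp2c37 and Cyp2c54 lost their call in Equal light, at 0.48 (limma adjusted p 0.0608) and 0.47 (0.113). Without the libraries rich in pancreas or muscle markers the calls fell to 5 in Equal and 2 in Long light, and Cyp2c50 stood at 0.44 in Equal (limma adjusted p 0.0604) and 0.52 in Long light (0.0989).

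The test of the difference between photoperiods found no diet effect that changed. No enzyme and no gene of the table passed the diet by photoperiod interaction in limma (0% of all genes), with 2 enzymes (Cyp2s1 and Cyp2j6) and 483 genes below 0.05 before adjustment. In limma-voom on the recovered reads the count of enzymes was 0 as well.

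Photoperiod itself moved no enzyme past the threshold. Long against Short light gave 0 of 34 (0% of all genes, 2 enzymes at an unadjusted p under 0.05), Long against Equal light 0 (0.0278%, with 0.0208% lower, 8 enzymes) and Short against Equal light 0 (0.00695%, 8 enzymes), and limma-voom also gave 0 in each. The Cyp2d genes Cyp2d9, Cyp2d10, Cyp2d13, Cyp2d22 and Cyp2d26 were among the unadjusted ones in both comparisons with Equal light. Cyp2d9 stood at 0.205 and 0.18 in Long and Short against Equal light, Cyp2d10 at 0.16 and 0.14, Cyp2d13 at 0.128 and 0.135, Cyp2d22 at 0.13 and 0.17, and Cyp2d26 at 0.16 and 0.16. Their adjusted p-values ran from 0.114 to 0.318, both comparisons use the same Equal light libraries, and both libraries that stood apart are among those. Cyp2c55 stood at -0.345 and -0.335 (adjusted p 0.211 and 0.169).

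The daily cycle was fitted as a wave of 24 h in each arm. Over the 6 arms, 14 of 34 enzymes (41.2%) were rhythmic, against 52.7% of all genes tested. In single arms the counts were 9 in LFD Equal (20.9% of all genes were rhythmic there), 9 in LFD Long (23.6%), 6 in LFD Short (27.1%), 4 in HFD Equal (16.5%), 5 in HFD Long (21.8%) and 1 in HFD Short light (14.1%). Rhythmic in at least 1 arm were 18 enzymes (51.5% of all genes were), and 16 were in none, among them Cyp2c40, Cyp2c67, Cyp2c68, Cyp2c69, Cyp2c50 and Cyp2j5 of the strongest diet calls. Counts in the HFD arms were lower, but no enzyme passed the test of a rhythm that differs by diet (limma, 0.00695% of all genes, 0 enzymes at an unadjusted p under 0.05, and 0 passing in limma-voom). Of the 34 rhythm calls in single arms, 29 remained without the LFD library that stood apart, where 6 others appeared. Without the libraries rich in pancreas or muscle markers 20 remained and 7 others appeared.

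The widest cycle belonged to Cyp2g1, rhythmic in all 6 arms. Its amplitude, the rise from mean to peak, was 0.86 (Equal), 1.2 (Long) and 0.92 (Short) in LFD and 1.29, 1.515 and 1.23 in HFD on the log2 scale. The peak fell at ZT 8.87 (SE 1.03 h) in LFD Equal, 14.14 (0.74) in LFD Long and 4.86 (0.96) in LFD Short light. In HFD it fell at 7.57 (0.71), 12.26 (0.60) and 4.43 (0.71). Both diets thus had the earliest peak in Short and the latest in Long light, and the test of a cycle that differs by photoperiod gave an adjusted p of 2.97e-12 (limma).

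The highest Cyp2g1 group mean lay at ZT 12 in Long light on both diets. In Equal and Short light alike it lay at ZT 4 in HFD and at ZT 8 in LFD. The order of Equal and Short light thus rests on the fitted peaks. In HFD Long light the 3 libraries at ZT 12 had 0.79, 1.58 and 1.99 log2 CPM and the 4 at ZT 0 had -2.54, -1.28, -0.95 and -0.32. In HFD Short light the 4 at ZT 4 had 1.07, 1.21, 1.44 and 1.79 and the 3 at ZT 16 had -1.75, -1.08 and -0.98. The high and low times did not overlap in either arm. They were picked as the highest and lowest group means, which favours such a separation. In LFD Equal light the rhythm rested in part on the library that stood apart (-2.36 at ZT 0): without it the adjusted p was 0.0672, against 0.018 with it, and 0.164 without those rich in pancreas or muscle markers. Dbp, a clock output factor, peaked at ZT 8.24, 13.4 and 5.01 in LFD under Equal, Long and Short light, and at 8.63, 12.31 and 4.13 in HFD.

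**Figure D5:**
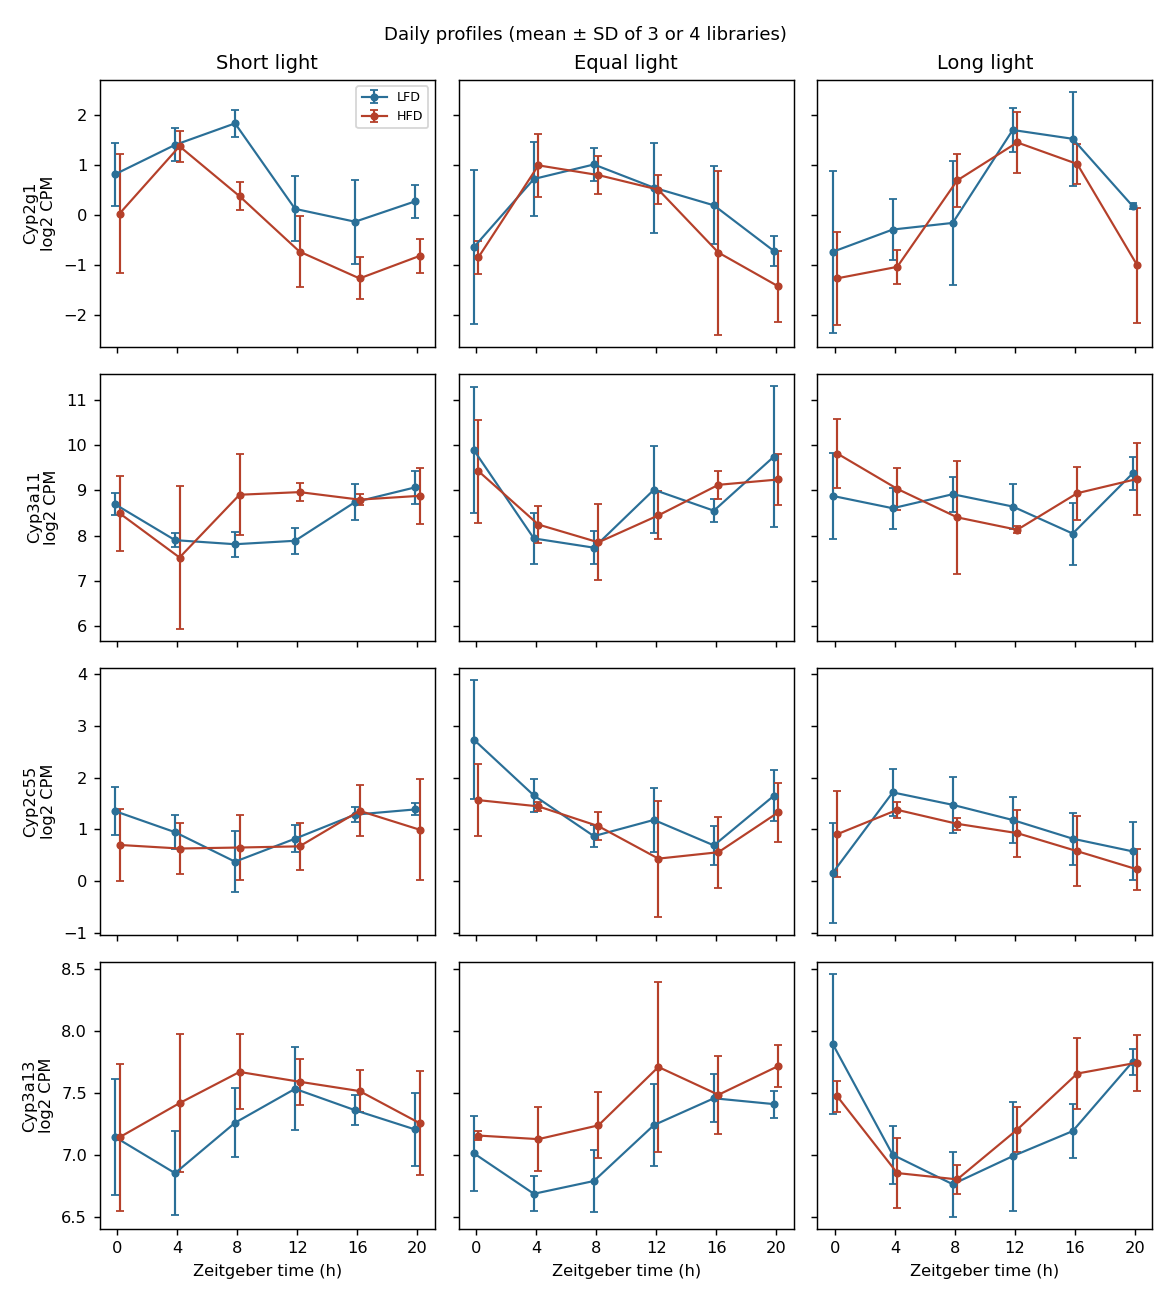
Daily profiles of Cyp2g1, Cyp3a11, Cyp2c55 and Cyp3a13 in log2 CPM against zeitgeber time in hours, by photoperiod (columns) and diet (blue: LFD, red: HFD; mean ± SD of 3 or 4 libraries). The Cyp2g1 maximum lies at ZT 4 or 8 in Equal and Short light and at ZT 12 in Long light.

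Cyp3a11 was rhythmic in 4 arms. Its amplitude was 0.85 in LFD Equal, 0.70 in LFD Short, 0.75 in HFD Equal and 0.76 in HFD Long light, with peaks at ZT 20.32, 19.98, 20.1 and 22.91. In LFD Long (0.25, adjusted p 0.682) and HFD Short light (0.54, adjusted p 0.21) it was not called. The 4 LFD Short light libraries at ZT 20 had 8.76, 8.80, 9.20 and 9.52 log2 CPM, and the 3 at ZT 8 had 7.56, 7.78 and 8.10. Those 2 times, the highest and lowest group means of the arm, did not overlap, and picking them so favours a separation. In LFD Equal light the highest libraries were 11.49 at ZT 0, which is the one that stood apart, and 11.52 at ZT 20, and the adjusted p went from 0.019 to 0.0498 without the former and to 0.632 without those rich in pancreas or muscle markers.

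Cyp3a13 also cycled in 4 arms, with small amplitudes of 0.41 (LFD Equal), 0.55 (LFD Long), 0.30 (HFD Equal) and 0.52 (HFD Long) and peaks at ZT 17.03, 21.44, 15.92 and 18.89. In LFD Long light the 3 libraries at ZT 20 had 7.65, 7.75 and 7.86 log2 CPM and the 4 at ZT 8 had 6.54, 6.56, 6.87 and 7.09. Without the libraries rich in pancreas or muscle markers the HFD Equal light call was lost (adjusted p 0.052) and LFD Short light was called (0.0185). Its cycle differed by photoperiod (limma adjusted p 1.11e-07). The called peaks of both Cyp3a genes lay between ZT 15.92 and 22.91, and those of Cyp2g1 between 4.43 and 14.14.

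Cyp2c55 was rhythmic in 3 arms with amplitudes of 0.78 (LFD Equal, peak at ZT 0.42), 0.62 (LFD Long, 8.05) and 0.60 (HFD Equal, 1.05). In LFD Equal light the libraries at ZT 0 had 1.59, 2.72 and 3.91 log2 CPM, the last being the library that stood apart, and those at ZT 16 had 0.13, 0.85, 0.86 and 0.92. Without that library the adjusted p in LFD Equal light was 0.0443. Without the libraries rich in pancreas or muscle markers both LFD calls were lost, with adjusted p-values of 0.0926 (Equal) and 0.0705 (Long). The cycle differed by photoperiod with an adjusted p of 5.66e-07 (limma).

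Cyp2a4, Cyp2u1 and Cyp2c37 had wide mean amplitudes but few calls. Cyp2a4 passed in LFD Long light (amplitude 1.13, peak at ZT 15.17, adjusted p 0.0417) and had amplitudes of 1.12 in HFD Long light (peak at 15.64) and 0.98 in HFD Short light (peak at 6.29) that did not pass. In HFD Long light it passed without the library that stood apart (adjusted p 0.0201) and without those rich in pancreas or muscle markers (0.0302). The far more abundant Cyp2a5 (median 8.58 log2 CPM) peaked at ZT 16.82 in LFD Long, 15.54 in HFD Long and 6.84 in HFD Short light. Whether reads of Cyp2a5 were counted for Cyp2a4 was not tested. Cyp2u1 passed in LFD Long (0.45, peak at ZT 4.62) and HFD Long light (0.57, 4.48). Without the rich libraries it lost the LFD Long light call (0.14) and passed in LFD Equal (0.0145) and LFD Short light (0.00766), and without the library that stood apart it passed in LFD Short light as well (0.0403). Cyp2c37 passed only in LFD Equal light (0.59, peak at ZT 14.52, adjusted p 0.044), and the call was lost without the library that stood apart (0.216). The same omission gave it a call in HFD Equal light (0.0313, against 0.106 with all libraries), as did leaving out the rich libraries (0.0447). Leaving out the library that stood apart also ended the LFD Equal light calls of Cyp2d9 (0.603), Cyp2d26 (0.115) and Cyp2d40 (0.314), and brought in Cyp2u1 (0.00576) and Cyp2s1 (0.0444).

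A cycle that differed by photoperiod was found for 14 enzymes (41.2%, against 49.1% of all genes): Cyp2g1, Cyp3a13, Cyp2c55, Cyp2a4, Cyp2c23, Cyp2u1, Cyp2d22, Cyp2c70, Cyp2d9, Cyp2a12, Cyp2j9, Cyp3a11, Cyp2r1 and Cyp2d26. The 4 with the smallest p kept the call under all 13 alternatives of processing. No enzyme passed the test of both diet and photoperiod (limma, 0% of all genes, 1 enzyme at an unadjusted p under 0.05, and 0 passing in limma-voom).

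Genes that serve or control these enzymes were read from lists. Of all genes tested, 12.9% were higher in HFD and 12.6% lower. Of 16 receptors and factors, 3 were higher in HFD and 3 lower. Nr1i3, which codes for CAR, rose by 0.78 (SE 0.107, limma adjusted p 1.08e-08), the dioxin receptor Ahr by 0.38 (4.48e-07) and the fatty acid receptor Ppara by 0.26 (1.29e-04). Foxa2 stood at -0.25 (adjusted p 0.0147), and PXR (Nr1i2) at 0.04 (0.569). Of 14 electron donors and heme synthesis genes, 7 were higher and 2 lower. Cpox of the heme pathway rose by 0.31 (3.33e-10), cytochrome b5 (Cyb5a) by 0.26 (4.29e-06) and the heme oxygenase Hmox1 by 0.24 (2.63e-04), while Cyb5r3, the reductase of cytochrome b5, fell by 0.31 (9.83e-05). Por stood at 0.08 (adjusted p 0.727).

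Markers of position in the lobule moved with the diet too. Of 10 pericentral hepatocyte markers 8 were higher in HFD (12.9% of all genes were) and none lower, with Lect2 at 0.43, Oat at 0.60, Lgr5 at 0.48 and Gulo at 0.23. Of 9 periportal markers 2 were lower (12.6% of all genes were), Cdh1 at -0.31 and Cps1 at -0.16. The mean level of the pericentral list ran from 5.86 to 6.57 log2 CPM over HFD libraries and from 5.34 to 6.39 over LFD libraries, and its part in the differences of the enzymes was not tested. Of 7 macrophage markers 5 were also higher in HFD (12.9% of all genes were), with a list mean of 3.94 to 6.17 log2 CPM in LFD and 4.21 to 6.0 in HFD.

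Growth hormone signalling genes were mixed, and of all genes tested 12.9% were higher in HFD and 12.6% lower. Of 9, Stat5a was higher in HFD (0.345, adjusted p 6.04e-08 by limma) and 3 were lower, Socs2 at -0.90 (6.88e-04), Cish at -0.74 (0.0232) and Cux2 at -0.24 (0.0404). Of 11 genes known as male-biased in liver, 1 was lower in HFD (Cyp4a12b), and of 7 female-biased genes 2 were higher (Hao2 at 1.43 and Sult1e1 at 0.81) and 2 lower (Nipal1 and Cux2). Transcripts of the Y-linked Ddx3y were found in every library, at 5.26 to 6.92 log2 CPM. In the LFD library that stood apart, the male-biased genes Hsd3b5 and Slco1a1 had the lowest values of all libraries (0.60 and 5.27 log2 CPM, against medians of 7.98 and 9.22). Of the same list, Elovl3 stood there at 5.915 (median 8.425) and Mup20 at 10.979 (median 11.278), neither the lowest. Ddx3y was at 5.925 in that library.

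The partners were read for the daily cycle too. Over the 6 arms, all 6 clock output factors, 10 of 14 electron donor and heme genes and 9 of 16 receptors and factors were rhythmic, against 52.7% of all genes tested. Por peaked at ZT 12.24, 16.63 and 7.22 in LFD Equal, Long and Short light with amplitudes of 0.99, 1.38 and 1.17, and Alas1, the first enzyme of heme synthesis, at 12.82, 14.8 and 8.12. Cyp2a5, a Cyp2a gene outside the rule, peaked at 11.3, 16.82 and 7.37 with amplitudes of 0.95, 1.37 and 1.14. The D-box bound by Dbp (TTATGTAA or TTACGTAA, both strands) was in 0 of 29 start windows of the enzymes and in 1.06% of all windows, and the E-box CACGTG was in 1 (Cyp2j6) and in 7.15%.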

How the data were processed

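The authors deposited 1 table of log2 CPM values for 123 liver libraries, made from stranded poly-A RNA read as pairs of 52 bases, per the labels' protocols. The submitters' processing notes name GRCm38 (mm10), STAR and featureCounts, with Subread at 1.6.2. Options, annotation and normalization are not given there. The lowest value, -3.6124 (0.08176 CPM), was read as a prior of 2.0 reads. Removing it gave whole reads within 0.05 for all values checked up to 2000 reads, and hence the depths. The library total that the CPM scale implies can differ from this depth. In replicate 3 of LFD Equal light at ZT 0 it was 26.43 M, against 21.60 M reads. The prior understates changes of genes near the floor.

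Limma 3.58.1 (R 4.3.3, variance trend) was fitted to all 14397 genes with at least 1 CPM in 3 libraries, with 1 mean per group and equally weighted groups, and, for rhythm, with waves of 24 h fitted per arm. The Benjamini-Hochberg adjustment ran over all genes tested. The fits were tested on simulated data. All members are named; full values go to the 8 smallest adjusted p-values for diet and the 6 rhythmic members of largest mean amplitude, and of each list to at most 4 genes. Cyp3a13 was added to these, and other genes named were chosen after their values were seen. The letters CAAAGTCCA and the 7 correlated pairs were also chosen after seeing the data. Alternatives covered filter, scaling, pseudocount, limma-voom, the library number, and libraries left out. The members and lists were chosen with earlier results of these data known.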

Additional observations from a re-analysis of the deposited data

Results flagged for a closer look

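In groups of 4 libraries, 90 sets of values of the 6 enzymes of largest mean amplitude among those rhythmic over the 6 arms were examined for a library far from the others, and 5 were found. Chance alone flags about 1 in 20 such groups. For Cyp2g1 in LFD Equal light at ZT 12, 1 library at -0.81 log2 CPM stood below 0.94, 0.96 and 1.09, and its gap was 0.922 of the whole range. For Cyp2a4 in the same group, 1 at -0.11 stood below 0.39, 0.44 and 0.47 (gap 0.866 of the range). Cyp3a11 in HFD Short light at ZT 4 had 1 library at 5.18 below 8.11, 8.33 and 8.46 (0.893), and Cyp2c37 in that group had 1 at 6.14 below 6.98, 7.12 and 7.15 (0.835). Cyp2c55 in LFD Equal light at ZT 16 had 1 at 0.13 below 0.85, 0.86 and 0.92 (0.918).

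The daily cycle differed between photoperiods in 14 enzymes (limma, Benjamini-Hochberg over 14397 genes). The adjusted p was 2.97e-12 for Cyp2g1, 1.11e-07 for Cyp3a13, 5.66e-07 for Cyp2c55, 0.00122 for Cyp2a4, 0.00285 for Cyp2c23, 0.00327 for Cyp2u1 and 0.0054 for Cyp2d22. It was 0.00568 for Cyp2c70, 0.0119 for Cyp2d9, 0.0124 for Cyp2a12, 0.0182 for Cyp2j9, 0.0315 for Cyp3a11, 0.0348 for Cyp2r1 and 0.0405 for Cyp2d26. The share among all genes tested was 49.1%.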

How the results depend on the processing

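No diet difference that passed reversed its sign under the alternatives run. The diet calls of Cyp2c37, Cyp2c40, Cyp2c50, Cyp2c54, Cyp2c67, Cyp2c68, Cyp2c69, Cyp2c70, Cyp2d12, Cyp2d26 and Cyp2j5 passed under all 13 alternatives. Cyp2d11 lost its call in 6, Cyp2a12 in 5, Cyp2c29 and Cyp3a59 in 3, Cyp2r1 in 2, and Cyp3a13 and Cyp2g1 in 1. Without the libraries rich in pancreas or muscle markers, diet calls fell to 5 in Equal and 2 in Long light, and rhythmic enzymes to 2 in LFD Equal and 4 in LFD Long light. Without these and the 2 libraries farthest from their own groups, chosen after seeing the data, the diet count was 2 in Long light. Rhythm counts were then 3, 5 and 10 in LFD Equal, Long and Short light. With time as a factor, rhythmic enzymes were 5 in LFD Long, 3 in LFD Short, 1 in HFD Equal and 2 in HFD Long light. Quantile normalization gave 2 in HFD Equal light, and leaving out the 2 farthest libraries 2 in HFD Short light. The cause was not tested. Leaving out 1 replicate number from every group, which removes up to 36 libraries, gave 6 to 11 diet calls higher, 5 to 8 lower, 2 to 8 in Equal, 2 to 8 in Long and 2 to 8 in Short light. It gave 9 to 18 rhythmic enzymes over the arms, 1 to 12 in LFD Equal, 3 to 9 in LFD Long, 2 to 8 in LFD Short, 1 to 5 in HFD Equal, 2 to 6 in HFD Long and 1 to 2 in HFD Short light, and 6 to 15 with a cycle differing by photoperiod. These ranges include leaving out only replicate 3 of LFD Equal light at ZT 0, also chosen after seeing the data. No paired analysis was possible because the labels give no replicate numbers, and those used here follow the order of deposit. Depth limits Cyp2c69, Cyp2d11, Cyp2d12 and Cyp2s1, with medians under 20 reads per library.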

Other observations

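Pseudogenes of the Cyp2d and Cyp2c subfamilies, which the rule left out, were measured too. Cyp2d37-ps stood at 7.59 ± 0.20 log2 CPM over the 61 HFD libraries (mean ± SD) and 7.57 ± 0.32 over the 62 LFD libraries, and Cyp2d38-ps at 5.61 ± 0.24 and 5.64 ± 0.33. Cyp2d36-ps stood at 3.56 ± 0.69 in HFD and 3.31 ± 0.80 in LFD, Cyp2d41-ps at 0.80 ± 0.76 and 1.2 ± 0.73, Cyp2d35-ps at -0.08 ± 0.71 and -0.11 ± 0.77, and Cyp2c53-ps at -0.47 ± 0.83 and -0.67 ± 0.87. Of these 6 rows 3 carried no deposited symbol and took their name from GENCODE M21.

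The spread between libraries of a group was wide for these enzymes. The median residual SD of the 34 was 0.485 on the log2 scale, against 0.253 for all 14397 genes tested and 0.189 for the 2139 genes with a mean above 6 log2 CPM. Cyp2c40 (1.327), Cyp2a4 (1.284) and Cyp2c69 (1.28) had the widest spread and Cyp2j6 (0.176) and Cyp2j5 (0.18) the narrowest.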
